A study of Mus musculus with 3 samples.

Results

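Myc, the long non-coding RNA (lncRNA) genes Pvt1 and Gm2682 on the same chromosome, and 5 genes of the Max network (Max, Mxd1, Mxd4, Mxi1 and Mnt) were examined for H3K36me3, a trimethylated lysine of histone H3, in mouse regulatory T (Treg) cells of the spleen and the large intestine (LI). These 8 genes were taken from 55450 annotated genes, of which 11946 had a peak and 10886 had enough signal to compare. A peak belonged to a gene when its midpoint lay within the gene body in the GENCODE M21 annotation, which gave the 8 genes 129 of 120910 peaks. The genes were selected on a known biological relation and with their spleen and LI signals in these libraries already known, so those signals are given as a description and support nothing beyond it.

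Treg cells were sorted as CD3+CD4+Foxp3-YFP+ lymphocytes from adult Foxp3Cre-YFP mice of the C57BL/6 strain at steady state, in which a reporter and Cre recombinase are driven from the Treg lineage gene Foxp3 (labelled genotype Foxp3-YFP). The cells of 7 male and 7 female mice were pooled, and 1 immunoprecipitated library was made per tissue, next to 1 input library of splenic chromatin that is not analysed here. There were therefore no replicates, no test between tissues was possible, and every difference below is between 2 libraries. Values are the mean read coverage of a peak in RPKM (coverage per kilobase, scaled to sequencing depth). A log2 ratio is LI over spleen, computed with a pseudocount of 0.5 RPKM after both libraries had been scaled to the same total over all peaks, and the range after it is an approximate 95% counting interval that covers counting error only.

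Inferred from the steps between values, the spleen library had 29600000 mapped reads and the LI library 38100000. Over the 10886 genes the median log2 ratio was 0.01, and the middle 50% of genes lay between -0.20 and 0.24. With peaks ranked by GC content in 10 equal bins, the median peak ratio rose from -0.41 in the lowest bin to 0.29 in the highest. All 6 markers of T and Treg cells (Foxp3, Il2ra, Ctla4, Ikzf2, Cd4 and Cd3e) had peaks, with ratios from -0.55 (-0.66 to -0.44) in Ikzf2 and -0.41 (-0.80 to -0.02) in Cd3e to 0.59 (0.31 to 0.88) in Ctla4. Of 6 markers of intestinal epithelium, 3 had peaks, summing to 55.1 RPKM in spleen and 93.8 RPKM in LI, namely Epcam (ratio 0.84, 0.22 to 1.47, with all 5 peaks higher in LI), Lgals4 (0.38) and Vil1 (1.31, below the signal minimum), while Krt8, Krt20 and Cdh1 had none. Of 4 B cell markers, 2 had peaks (51.3 and 39.7 RPKM in all), mostly in Cd79a (47.2 and 29.8 RPKM, ratio -0.70, -1.33 to -0.07), with none in Ms4a1, and of 5 myeloid markers 1 had a peak (Csf1r, 14.7 and 16.3 RPKM). The part of other cell types in the ratios below was not tested, and a change in all cells cannot be told apart from a change in the mix of Treg subsets.

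Myc is a transcription factor that drives growth and proliferation, including that of activated lymphocytes. It binds DNA as a dimer with Max, at E-box sequences, whereas the Mxd proteins (Mxd1, Mxd4 and Mxi1, also called Mxd2) and Mnt compete for Max and recruit co-repressors. Pvt1 is a lncRNA gene just downstream of Myc that is known from chromosomal rearrangements and as a neighbour that shares regulatory elements with Myc. H3K36me3 is laid down by Setd2, which travels with elongating RNA polymerase II, so it marks the bodies of transcribed genes and is low at their starts.

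Sequences are shown for peaks of Gm2682 and Mxi1, the genes with the lowest and highest ratio, and for a pair of short Pvt1 peaks, with CG dinucleotides, the sites of DNA methylation, in capitals. They were read from the RefSeq GRCm38.p6 assembly (the assembly of mm10, the build of the deposited peaks), 5′ to 3′ on the strand of the gene. The first is the central 300 bases (chr15:60159063-60159362, minus strand) of the strongest Gm2682 peak, which lies in an intron, with 17.1 RPKM in spleen against 6.42 RPKM in LI.
Gm2682: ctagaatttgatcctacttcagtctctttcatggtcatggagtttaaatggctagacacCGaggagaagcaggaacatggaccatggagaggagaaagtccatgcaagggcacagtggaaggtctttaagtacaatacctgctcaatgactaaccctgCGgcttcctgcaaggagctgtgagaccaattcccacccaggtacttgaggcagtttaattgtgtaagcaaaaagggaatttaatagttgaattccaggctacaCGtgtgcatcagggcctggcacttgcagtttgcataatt
The second is the central 300 bases (chr19:53334930-53335229, plus strand) of the Mxi1 peak of 1 kb or more with the highest ratio, which is intronic and had 5.16 RPKM in spleen and 16.3 RPKM in LI.
Mxi1: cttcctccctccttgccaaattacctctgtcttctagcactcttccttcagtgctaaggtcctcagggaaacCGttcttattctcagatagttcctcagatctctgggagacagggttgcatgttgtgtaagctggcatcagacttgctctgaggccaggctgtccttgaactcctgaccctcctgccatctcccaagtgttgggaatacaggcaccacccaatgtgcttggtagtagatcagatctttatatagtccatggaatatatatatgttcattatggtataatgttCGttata
The last pair are neighbouring intronic peaks of Pvt1 on the plus strand, 7.01 kb apart, shown as an example of short neighbours whose values point in opposite directions, and chosen after their values were seen. The one nearer to Myc (chr15:62070219-62070418) had 18.6 RPKM in spleen and 5.92 RPKM in LI, and the second (chr15:62077429-62077637) had 0.904 and 8.57 RPKM.
Pvt1 peak higher in spleen: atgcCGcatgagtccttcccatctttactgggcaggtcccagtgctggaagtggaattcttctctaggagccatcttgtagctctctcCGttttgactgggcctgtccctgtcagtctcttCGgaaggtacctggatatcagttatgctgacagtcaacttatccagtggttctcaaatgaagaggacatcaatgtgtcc
Pvt1 peak higher in LI: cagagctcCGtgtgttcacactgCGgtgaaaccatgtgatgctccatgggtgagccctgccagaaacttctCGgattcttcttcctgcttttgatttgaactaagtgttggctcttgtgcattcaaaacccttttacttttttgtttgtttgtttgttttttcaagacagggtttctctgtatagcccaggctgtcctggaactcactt
The counting interval of the latter included 0. The Gm2682 stretch held 3 CG dinucleotides and the Mxi1 stretch 2.

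**Figure D1:**
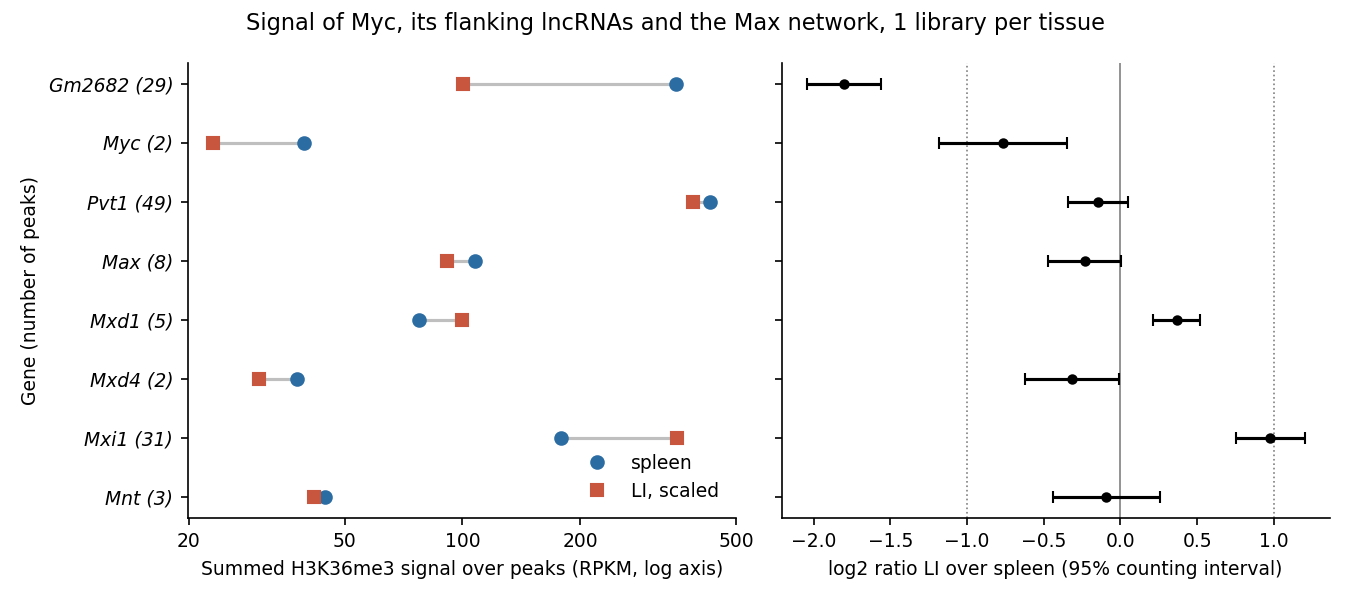
Summed H3K36me3 signal over all peaks of each gene in spleen (circles) and LI (squares, scaled to the spleen total) on a log axis in RPKM, left, and the log2 ratio LI over spleen with its 95% counting interval, right, with 1 library per tissue and dotted lines at 2-fold. Gm2682 lies past 2-fold lower in LI at -1.80, Myc follows at -0.76, and Mxi1 is farthest to the right at 0.98.

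Of the 8 genes, 6 had more signal in spleen and 2, Mxd1 and Mxi1, had more in LI. Over all genes compared, 49.3% had more signal in spleen, so a count of 6 of 8 is given with no further reading. The genes past 2-fold lower in LI numbered 1 of 8 (Gm2682), against 2.04% of all genes, and 0 of 8 were past 2-fold higher, against 3.43% of all genes. The counting interval lay below 0 for Gm2682, Myc and Mxd4, above 0 for Mxd1 and Mxi1, and included 0 for Pvt1, Max and Mnt. It also lay below 0 for Pvt1 and Max when a read was taken to cover 75 bp, and for Pvt1 and Mnt after correction for GC content. The share of all genes or all peaks with an interval that leaves out 0 was not computed. Counts of such intervals, here and below, are therefore given with no further reading. The summed signals and ratios of all 8 genes are shown side by side in the plot of members. Per base of peak, the level in spleen was highest in Mxd4 (26.1 RPKM), followed by Mxd1, Myc, Max and Mnt between 19.6 and 18.3 RPKM, whose order could not be told apart within counting error from one neighbour to the next. Gm2682 (13.5 RPKM), Pvt1 (8.94 RPKM) and Mxi1 (6.50 RPKM) came after them, each separated from the next. In LI the order was Mxd1 (24.9 RPKM) and Mxd4 (23.8 RPKM), which overlapped, then Mnt (19.7 RPKM) and Max (17.1 RPKM), then Mxi1 (13.3 RPKM) and Myc (11.4 RPKM), which overlapped, and Pvt1 (8.37 RPKM). Gm2682 was the lowest at 4.44 RPKM per base of peak, so it moved from the sixth place in spleen to the last in LI, while Mxi1 moved from the last to the fifth.

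Gm2682 (chr15:60120540-60187408, minus strand, 66.9 kb; GENCODE gene ENSMUSG00000115681.1, annotated as lincRNA) had the lowest ratio of the 8. Its 29 peaks summed to 351.7 RPKM in spleen and 103.6 RPKM in LI, a log2 ratio of -1.80 (-2.05 to -1.56), or 3.49-fold higher in spleen. This is percentile 0.17 of the ratios of all genes compared. All 29 peaks had more signal in spleen, against 51.0% of all peaks. Past 2-fold lower in LI were 27 of the 29 (93.1%), against 9.58% of all peaks. The spleen values of the peaks ran from 7.92 to 17.1 RPKM with a median of 11.6 RPKM, and the LI values from 1.02 to 8.76 RPKM with a median of 3.17 RPKM. All LI values but 1 of the 29 were therefore below the lowest spleen value, and the ranges of the libraries overlapped only through a 301-bp peak with 11.3 RPKM in spleen and 8.76 RPKM in LI. A merged peak needed a call in 1 tissue only, and a call made in spleen alone favours a higher spleen value. The tissue of each call is not given with the values. Counts of peaks by direction, here and below, are therefore given with no further reading.

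The difference ran along the whole Gm2682 body. When the body was divided into 3 equal parts, the part nearest the start had a log2 ratio of -2.0 over 6 peaks, the middle -1.51 over 11 peaks and the part nearest the end -2.0 over 12 peaks. It was also present in long peaks, which are measured most precisely: the 8 peaks of 1 kb or more had ratios between -1.89 and -1.18. For comparison, the SD of the ratio over all peaks in the table was 0.39 at lengths of 1 kb or more and 0.88 at shorter lengths. The counting interval of a single peak lay below 0 in 20 of the 29. Of the 29 peaks, 28 had their midpoint in an intron and 1 in an exon. The peak nearest to the start began 6.79 kb into the gene, and the last 5.92 kb of the body held none.

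The Gm2682 peaks differed from other peaks in their sequence. Bases that the RefSeq assembly marks as repeats made up 45.3% of them, against 19.2% of the bases of all peaks and between 7.89% and 17.0% in the other 7 genes. CG dinucleotides numbered 0.582 per 100 bases, against 1.33 over all peaks, and the median GC content was 41.9%. Over the 19 Gm2682 peaks with at most 50% of their bases marked as repeats, all 19 had more signal in spleen and the ratio of their sums was -1.82. After correction for the trend with GC content the ratio of the gene was -1.66. The genes nearest to Gm2682 in the log2 signals of both libraries, over 2 libraries only, were Patj (344.3 RPKM in spleen and 125.1 RPKM in LI), Nod1 (360.6 and 132.8 RPKM) and Dzip1 (275.2 and 117.6 RPKM).

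Myc (ENSMUSG00000022346.15, chr15:61985391-61990374, plus strand) had less signal in LI in both of its peaks. The one nearer to the start (762 bp, with its midpoint in coding sequence) measured 21.6 RPKM in spleen and 14.2 RPKM in LI, a log2 ratio of -0.64 (-1.23 to -0.04). The second (1196 bp, also centred in coding sequence) had 17.8 and 9.59 RPKM, a ratio of -0.91 (-1.46 to -0.35). Both LI values were thus below both spleen values. Together the peaks summed to 39.4 RPKM in spleen and 23.7 RPKM in LI, a ratio of -0.76 (-1.18 to -0.35), or 1.70-fold higher in spleen, at percentile 3.65 of all genes. The gene was within 2-fold, and neither peak covered the annotated start of the gene body, 2.17 kb before the nearer one.

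A further 2 peaks lay just past the annotated end of Myc, outside the gene body. The one 0.224 kb past the end (chr15:61990599-61990894) measured 12.3 RPKM in spleen and 9.13 RPKM in LI, and the peak 0.707 kb past it (chr15:61991082-61991390) had 12.1 and 4.49 RPKM. With these included, as happens when each peak goes to its closest transcript start, the ratio of Myc over 4 peaks was -0.81. The Myc peaks were rich in CG dinucleotides, with 4.49 per 100 bases against 1.33 over all peaks. GC correction moved the ratio of the gene to -1.0, since peaks of high GC content tended to higher ratios. The genes most like Myc in the levels of both libraries, again over 2 libraries only, were Mettl1 (38.8 and 23.6 RPKM), Apobec2 (39.8 and 23.4 RPKM) and Nip7 (40.9 and 24.3 RPKM).

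Pvt1 (ENSMUSG00000097039.8, chr15:62037986-62378096, plus strand, 340.1 kb) carried many weak and short peaks, with single ratios of both signs and a sum near equality. The SD of its peak ratios was 0.95, beside 0.88 over all peaks under 1 kb. Its 49 peaks summed to 428.2 RPKM in spleen and 399.5 RPKM in LI, a log2 ratio of -0.15 (-0.34 to 0.05), or 1.11-fold higher in spleen. The start of Pvt1 lies 47.6 kb past the end of Myc, and the interval of the Pvt1 ratio began just above the upper end of the Myc interval. More signal in spleen was seen in 29 of the 49 peaks (59.2%, against 51.0% of all peaks) and more in LI in 20. Peak values ran from 0.904 to 18.6 RPKM in spleen, with a median of 9.05 RPKM, and from 2.45 to 14.2 RPKM in LI, with a median of 8.51 RPKM. The ranges of the libraries overlapped almost throughout.

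All but 1 of the Pvt1 peaks were under 1 kb, with a median length of 292 bp. Of these 48 short peaks, 8 (16.7%) were past 2-fold lower in LI and 5 (10.4%) past 2-fold higher, against 12.2% and 11.2% of all peaks under 1 kb, so the shares were near the background in both directions. The counting interval of a single peak included 0 in all but 2 of the 49, 1 on either side. The 1 longer peak (1052 bp, in an intron) had 10.4 RPKM in spleen and 9.77 RPKM in LI, a ratio of -0.13, and the strongest by summed signal (286 bp) had 14.1 and 12.2 RPKM, a ratio of -0.24. The largest ratios were -1.93, in a 207-bp peak with 10.5 and 2.45 RPKM, and 2.65 (-1.28 to 6.58), in the 209-bp peak printed above. The 200-bp neighbour printed with it had a ratio of -1.61 (-3.19 to -0.03).

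Pvt1 signal was sparse and confined to the part of the gene nearer to Myc. The lengths of its peaks added up to 5.21% of the length of the body, against a median of 38.2% over all genes compared, counting whole peaks. They lay between 6.72 and 221.5 kb from the start, and the last 118.6 kb of the body had no peak in the table. The part of the body nearest the start had a ratio of -0.07 over 21 peaks and the middle part -0.20 over 28 peaks. A pseudogene on the opposite strand, H2afy3, lies inside Pvt1 and took in the midpoints of 2 of its peaks (25 and 26.4 RPKM in all). The strongest Pvt1 peak by summed signal (286 bp) is among these 2 and lies wholly within the pseudogene. Coverage does not tell the strands apart. The genes nearest to Pvt1 in both signals, over 2 libraries, were Cyld (427.6 and 398.2 RPKM), Kmt2e (430.4 and 401.8 RPKM) and Acap2 (434.3 and 397.5 RPKM).

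**Figure D2:**
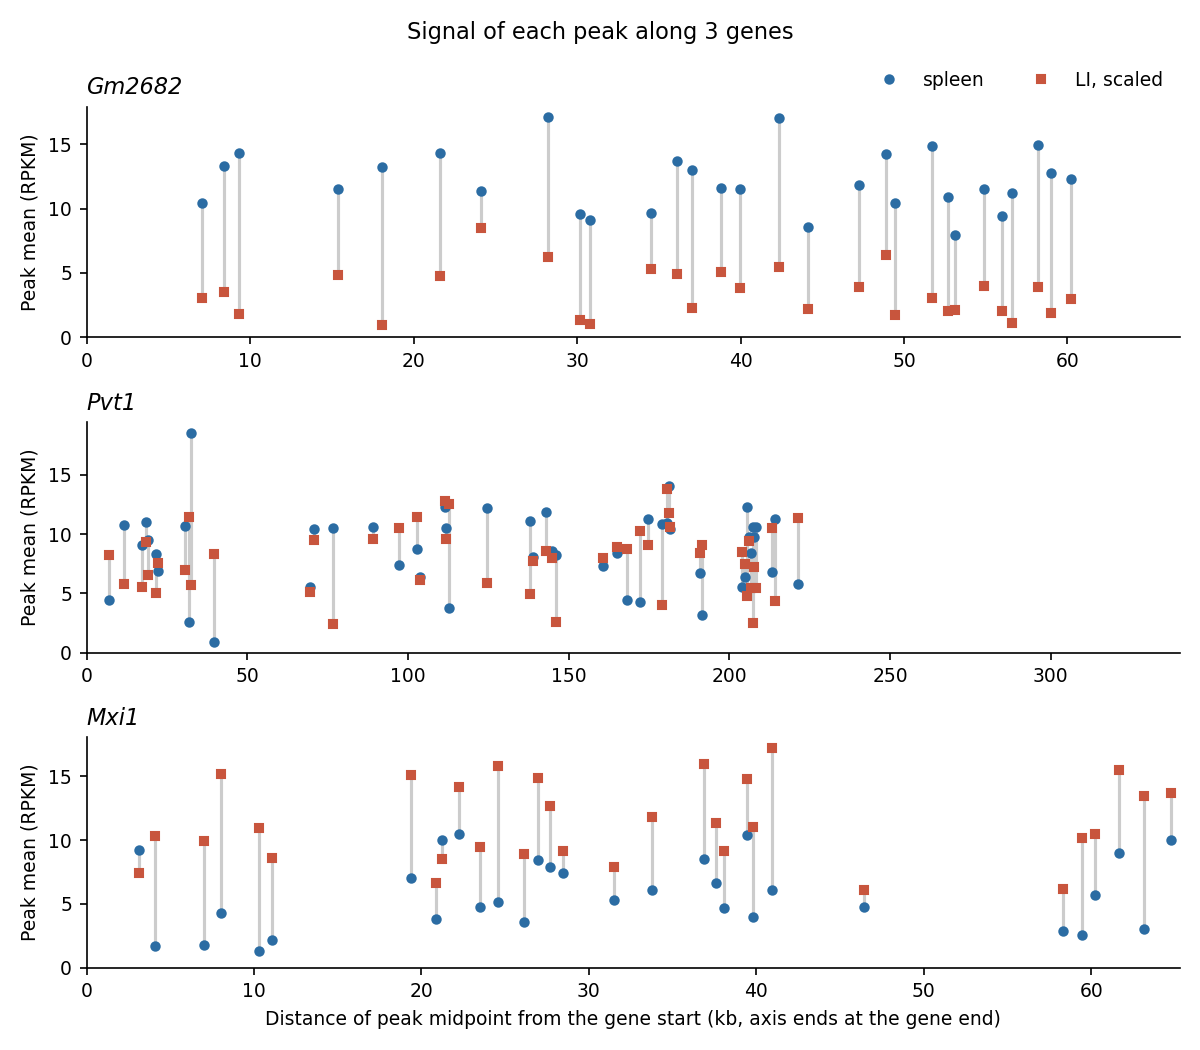
Mean signal of each peak in RPKM in spleen (circles) and LI (squares, scaled to the spleen total) against the distance of its midpoint from the gene start in kb, for Gm2682, Pvt1 and Mxi1, with grey lines joining the values of a peak. In Gm2682 the spleen value is the higher one in all 29 peaks, in Pvt1 the libraries cross along the first 221.5 kb and the rest has no peak, and in Mxi1 the LI value is the higher one in 29 of 31 peaks.

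Along chromosome 15, the start of Gm2682, which is read away from Myc, lies 1798 kb before the start of Myc, so it is a flanking gene only in the sense that the stretch between them had no peak. That stretch holds 21 annotated genes, 2 of them protein-coding (Fam84b and A1bg), and 0 of these 21 had a peak. From Gm2682 to the end of Pvt1 there were 82 peaks, 62 of them higher in spleen (75.6%, Wilson 95% interval 65.3 to 83.6), against 51.0% of all peaks. The ratio of the sums over the 82 peaks was -0.69. The interval treats peaks as independent, which neighbouring peaks of 1 gene are not, and 29 of the 62 came from Gm2682. Among the 10 peaks of 1 kb or more in the stretch all had more signal in spleen, 8 of them in Gm2682 and 1 each in Myc and Pvt1. The share of all peaks of 1 kb or more with more signal in spleen was not computed, so this count is given with no further reading.

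The signal beyond the stretch went in both directions. In the 1 Mb before it, on the side of the Gm2682 end, there were 38 peaks, and the ratio of their sums was 0.14. Of these, 10 (26.3%) had more signal in spleen, against 51.0% of all peaks. A 200-bp peak 23.3 kb past the end of Gm2682 (chr15:60097039-60097238), in none of the genes, had 10.4 RPKM in spleen and 1.97 RPKM in LI, the same direction as Gm2682. The neighbouring genes with peaks were Sqle, an enzyme of cholesterol synthesis (92.6 RPKM in spleen and 152.9 RPKM in LI, ratio 0.68), Washc5 (0.22), Nsmce2 (-0.79, -1.27 to -0.30, with more signal in spleen in 5 of 7 peaks) and Trib1 (0.16). In the 1 Mb after Pvt1 there were 0 peaks. Of 53 genes within the stretch and 1 Mb on either side, 8 had a peak.

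**Figure D3:**
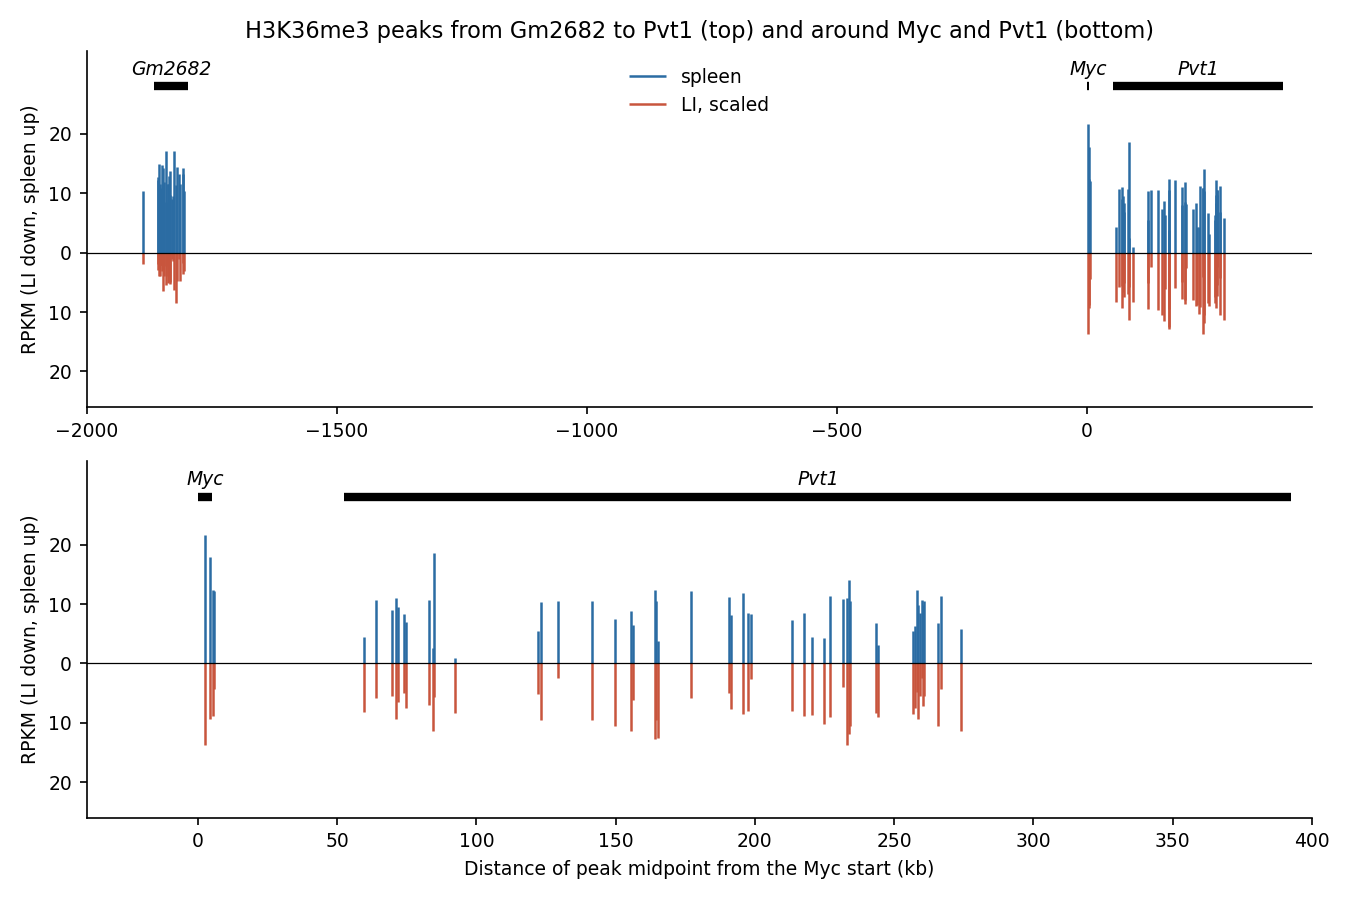
Peak signal in RPKM along chromosome 15, spleen upwards and LI (scaled to the spleen total) downwards, against the distance of the peak midpoint from the Myc start in kb, for the whole stretch (top) and around Myc and Pvt1 (bottom), with bars for the gene bodies. The 1798 kb between Gm2682 and Myc are empty. The spleen side is taller than the LI side in every peak of Gm2682 and Myc, and along Pvt1 in 29 of 49 peaks.

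Max, the shared partner of Myc and of its antagonists (ENSMUSG00000059436.13, chr12:76937269-76962201, minus strand), differed little. Its 8 peaks summed to 107.4 RPKM in spleen and 94.2 RPKM in LI, a log2 ratio of -0.23 (-0.47 to 0.01), with more signal in spleen in 5 of 8. Both long and short intronic peaks contributed to the ratio. The strongest peak (8612 bp), which runs 2.57 kb past the end of the gene, had 22.1 RPKM in spleen and 21.5 RPKM in LI. A 6393-bp intronic peak had 20.1 and 16.6 RPKM, a ratio of -0.32, and a 3292-bp one had 19.0 and 12.8 RPKM, a ratio of -0.60 (-0.91 to -0.30). Among the short peaks, a 218-bp one had 10.2 and 5.05 RPKM, a ratio of -0.99 (-2.76 to 0.78). Another 218-bp peak went the other way, with 6.50 and 9.75 RPKM, a ratio of 0.51. When peaks were given to the closest annotated transcript start instead, the ratio of Max was 0.00.

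Mxd1, an antagonist of Myc that rises when cells stop dividing and differentiate (ENSMUSG00000001156.9, chr6:86647042-86669161, minus strand), had more signal in LI in all 5 of its peaks. The sums were 77.3 RPKM in spleen and 103.0 RPKM in LI, a log2 ratio of 0.37 (0.21 to 0.52), or 1.29-fold higher in LI, at percentile 82.7 of all genes. Peaks covered 92.8% of the gene body. The strongest (9913 bp) had 23.4 and 28.5 RPKM, a ratio of 0.23, and the 2588-bp peak nearer to the start had 10.6 and 16.2 RPKM, a ratio of 0.54, the highest among the 4 peaks of 1 kb or more. In each of the 5 peaks the signals of the libraries lay within 2-fold of each other.

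Mxi1, also an antagonist that binds Max and recruits Sin3 co-repressors (ENSMUSG00000025025.14, chr19:53310518-53375810, plus strand, 65.3 kb), had the highest ratio of the 8. Its 31 peaks summed to 178.8 RPKM in spleen and 363.7 RPKM in LI, a log2 ratio of 0.98 (0.75 to 1.2), or 1.97-fold higher in LI, at percentile 96.4. More signal in LI was seen in 29 of 31 peaks and more in spleen in 2 (6.45%, against 51.0% of all peaks). Past 2-fold higher in LI were 12 of the 31 (38.7%), against 9.03% of all peaks, and 0 of 31 were past 2-fold lower. The spleen values ran from 1.35 to 10.5 RPKM with a median of 5.35 RPKM, and the LI values from 6.25 to 17.8 RPKM with a median of 11.3 RPKM. The ranges overlapped, but 18 of the 31 LI values were above the highest spleen value. A call made in LI alone favours a higher LI value, so these counts too are given with no further reading.

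The Mxi1 difference ran along the gene as well, with a ratio of 1.15 in the part nearest the start (9 peaks), 0.88 in the middle (15 peaks) and 0.99 in the part nearest the end (7 peaks). Its 4 peaks of 1 kb or more had ratios between 0.41 and 1.53. The highest of these was the 1543-bp peak whose centre is printed above, with an interval of 0.88 to 2.18, and an intronic peak of 1588 bp had the highest LI value, with 6.06 RPKM in spleen and 17.8 RPKM in LI (ratio 1.44). The strongest peak by summed signal, 248 bp in an intron, had 10.4 and 15.3 RPKM, a ratio of 0.49 (-0.78 to 1.75). In the 3′ UTR, 3 peaks all had more signal in LI, among them a 992-bp peak with 3.0 and 13.9 RPKM (ratio 2.0). The 2 peaks with more signal in spleen were a 379-bp peak with 9.24 and 7.66 RPKM and a 335-bp peak with 9.99 and 8.76 RPKM, both in introns. The lengths of its peaks added up to 26.5% of the length of the Mxi1 body, and to between 52.3% and 99.2% in the other Max network genes. These shares count whole peaks, so for Max and Mxd4 they include stretches past the gene end and exceed the part of the body covered. The counting interval of a single peak lay above 0 in 5 of the 31 and below 0 in none. An antisense transcript gene (AC133451.2) took in the midpoints of 2 of the 31 peaks, and without them the ratio was 0.92.

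Mxd4 (ENSMUSG00000037235.13, chr5:34173883-34187720, minus strand), another Mxd antagonist, was covered over most of its length by a single peak. That peak (13299 bp) had 26.6 RPKM in spleen against 24.3 RPKM in LI, a log2 ratio of -0.17 (-0.29 to -0.05), and extended 1.14 kb past the end of the gene. A 423-bp peak nearer to the start had 11.2 and 6.88 RPKM, a ratio of -0.71 (-1.84 to 0.43). The sums gave -0.32 (-0.62 to -0.01), but weighted by peak length the ratio was -0.18, since the short peak counts as much as the long one in a plain sum. Mnt, the broadly expressed antagonist that limits Myc in resting and dividing cells alike (ENSMUSG00000000282.12, chr11:74830920-74845725, plus strand), summed to 44.6 RPKM in spleen and 43.2 RPKM in LI over 3 peaks, a ratio of -0.09 (-0.44 to 0.25). Its strongest peak (5692 bp) had 20.2 and 21.4 RPKM, the 1814-bp peak 13.4 and 16.0 RPKM, and a 234-bp intronic peak 11 and 5.78 RPKM. Leaving out that short peak turned the sign of Mnt, to 0.10 over peaks of 1 kb or more, whereas correction for GC content gave -0.38 (-0.73 to -0.02). The same correction gave Mxd4 a ratio of -0.46.

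None of the 129 peaks covered the start of its gene, taken as the outermost start of the annotated body. The distance from that start to the nearest peak was 0.343 kb in Mxd1, between 1.2 and 2.96 kb in Mxd4, Max, Mnt, Myc and Mxi1, and over 6 kb in both lncRNA genes, at 6.72 kb in Pvt1 and 6.79 kb in Gm2682. Starts of other transcripts inside the gene bodies were not checked. At the promoters, the canonical E-box CACGTG, the motif that Myc-Max and Mxd-Max dimers are known to bind, was searched in the RefSeq promoter stretches of GRCm38.p6, from 250 bases before to 50 after each start. It reads the same on both strands. Of the 8 genes, 5 had such a stretch (Max, Mxd1, Mxd4, Mxi1 with 3 starts, and Mnt); Myc, Pvt1 and Gm2682 did not. The motif occurred once each in Max, Mxd4 and Mnt and was not found in Mxd1 or in the 3 stretches of Mxi1. Over all genes with a RefSeq stretch, 8.09% had the motif in at least 1 stretch, and 7.15% of all stretches held it. The 40 bases around each match are printed to show where the motif stands, with the motif in capitals.
Max (chr12:76962229-76962268, minus strand): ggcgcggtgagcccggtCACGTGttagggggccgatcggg
Mxd4 (chr5:34187907-34187946, minus strand): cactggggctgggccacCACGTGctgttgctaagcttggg
Mnt (chr11:74830784-74830823, plus strand): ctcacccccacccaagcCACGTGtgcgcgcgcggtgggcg
These matches describe the letters in the windows and not binding, and none of them lies in a peak. Within the peaks themselves the motif occurred 8 times in Mxi1, 6 times each in Max and Mxd1, 4 times in Gm2682, once each in Pvt1 and Mnt, and not in Myc or Mxd4. Per 10 kb of peak this was 4.62 in Mxi1, 2.92 in Mxd1, 2.69 in Max, 1.59 in Gm2682, 1.29 in Mnt and 0.564 in Pvt1, against 1.69 over all peaks.

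The other genes of the pathway were grouped in lists, 4 in all. Of 7 further Max and Mlx network genes, 4 had enough signal, with ratios of -0.89 (-1.74 to -0.03) in Mxd3, -0.27 (-0.45 to -0.09) in Mga, 0.01 in Mlxip and 0.26 in Mlx. Mycn, Mycl and Mlxipl had no peak, so Myc was the 1 gene of the Myc family with signal in the table. Mxd3, a Mxd gene known from proliferating cells, rested on 1 peak with 15.1 RPKM in spleen and 8.18 RPKM in LI. The median of the 4 was -0.13, beside 0.01 over all genes.

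The co-activators and co-repressors that Myc and Mxd proteins recruit differed little. All 19 had enough signal, 11 with more in spleen, or 9 under each of the 3 other scalings. Over all genes the share with more in spleen was 49.3%, or 43.6% to 47.6% under the other scalings. The median of the 19 was -0.01. The ratios ran from -0.26 in Hdac2 and -0.15 in Kat2a to 0.27 in Zbtb17, which encodes the Myc partner Miz-1, and 0.43 (-0.01 to 0.88) in Kat5, the acetyltransferase of the Tip60 complex. The genes that control the stability of Myc protein had more signal in spleen in 8 of 8, or 6 of 8 under each of the other scalings. The shares over all genes were again 49.3%, and 43.6% to 47.6% under the other scalings, and the count is given with no further reading. The median of the 8 was -0.12, and the interval lay below 0 in 3 of the 8 and above 0 in 0. Usp28, a deubiquitinase of Myc, had 255.9 RPKM in spleen and 190.8 RPKM in LI, a ratio of -0.47 (-0.65 to -0.29). Aurka followed with -0.43 (-0.73 to -0.14), and Usp36 (-0.002) was the closest to 0. With peaks of 1 kb or more only, 4 of 7 had more signal in spleen, beside 46.1% of all genes.

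Among 24 genes known to be induced by Myc, 23 had enough signal, and Srm had no peak. More signal in spleen was seen in 19 of 23, in 15 to 18 of 23 under the other scalings, beside 49.3% of all genes (43.6% to 47.6% under the other scalings), and the median was -0.13, with 0 past 2-fold in either direction. The lowest ratios were -0.54 (-0.78 to -0.31) in Slc7a5, a transporter of large neutral amino acids with 218.1 RPKM in spleen and 154.2 RPKM in LI, and -0.40 (-0.60 to -0.20) in Npm1, which encodes nucleophosmin. The highest were 0.71 (0.43 to 1.00) in Odc1, the enzyme that starts polyamine synthesis, with 27.5 and 46.8 RPKM, and 0.21 (-0.21 to 0.63) in Pa2g4. The interval lay below 0 in 7 of the 23 and above 0 in 2. Several of these genes, such as Npm1, Ldha and Hspd1, have many processed pseudogenes that can share reads with them, so their values are less certain. The ratios of all lists lay within 2-fold, as the plot of ratios shows.

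**Figure D4:**
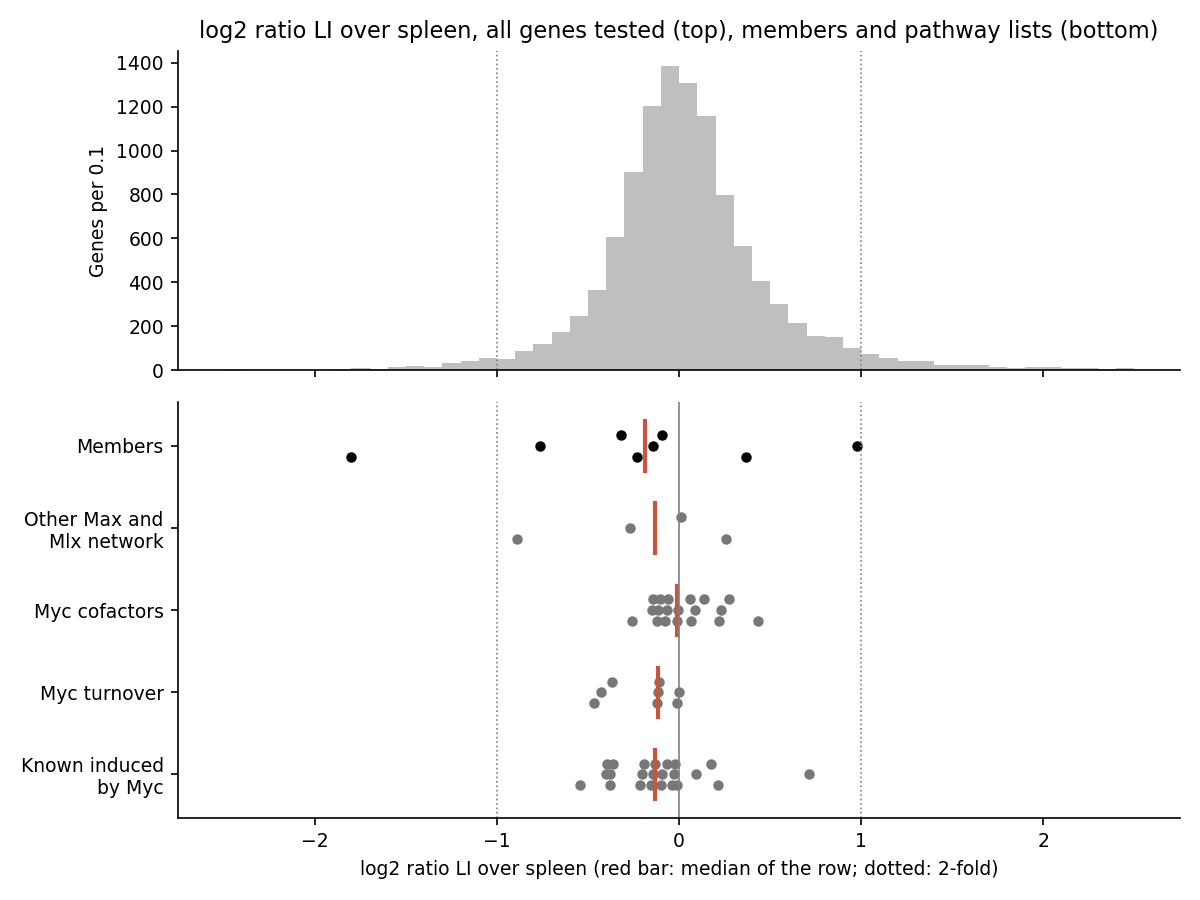
Histogram of the log2 ratio LI over spleen of the 10886 genes compared (top; values past 2.5 are put in the end bins) and the ratios of the 8 members and the 4 pathway lists (bottom, 1 point per gene, red bar at the median of the row, dotted lines at 2-fold). The members spread from -1.80 to 0.98, while every gene of the 4 lists lies within 2-fold.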

How the data were processed

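H3K36me3 ChIP-seq was analysed from 1 spleen and 1 LI library; the third library (input) was not analysed. Single-end 75-nt reads were mapped to mm10 by the authors (Bowtie2 is among their tools). They called peaks in each tissue with MACS2 (p-value threshold 0.01) against the input, so LI peaks too were called against splenic chromatin. They merged the peaks with bedtools and averaged RPKM coverage over each merged peak. These RPKM values were deposited, although labelled as raw counts. A merged peak needed a call in 1 tissue only, so it can be weak in the other. Versions are not given in the sources used here.

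The deposited RPKM values were summed per gene over peaks with their midpoint in the GENCODE M21 body, keeping genes whose summed signal in both libraries reached 20 RPKM, with LI scaled by the column totals (LI over spleen 1.03). Fold changes are on the log2(value + 0.5) scale and understate changes of low genes. The number of reads per peak was not recovered. The counting interval takes 1 read to cover 200 bp and reads as independent; simulated libraries were used to test the scripts. Depth came from the steps between values, which were whole in 99.96% of low spleen products (tolerance 0.05 of a step).

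The members and lists were chosen with earlier results of these data known. Named genes are the members, the 2 highest and 2 lowest ratios in each list, genes with a peak within 1 Mb of the stretch from Gm2682 to Pvt1, and the 3 genes nearest in both signals to each of Gm2682, Myc and Pvt1. Some items the rule names are not reported here. With 1 library per tissue no p-value was computed. Alternatives of scaling, pseudocount, weighting, peak assignment, peak length, filter and GC content were tried. Python 3.11.15, pandas 2.3.3, numpy 2.4.6 and scipy 1.17.1 were used.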

Additional observations from a re-analysis of the deposited data

How the results depend on the processing

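Of 161 recomputed values of 16 results, 151 kept their direction and stayed within their counting interval or within 1.5 times their count. Gm2682, Myc, Pvt1, Mxd1 and Mxi1 did so under all 11 alternatives, with ranges of -1.82 to -1.60, -1.0 to -0.67, -0.22 to -0.10, 0.23 to 0.42 and 0.91 to 1.02. Mxi1 thus crossed 2-fold under some scalings, with peaks of 1 kb or more only, and without its strongest peak. Max reversed to 0.0015 when peaks went to the nearest transcript start. Mnt reversed to 0.055 with length-weighted peaks and to 0.10 with peaks of 1 kb or more. Mxd4 moved to -0.71 without its strongest peak, which leaves 1 short peak. The share of peaks from Gm2682 to Pvt1 with more signal in spleen was 100% over the 10 peaks of 1 kb or more. Most of these are in Gm2682, and the same share over all long peaks was not computed. The number of genes past 2-fold was 595 (222 lower and 373 higher in LI). It was 391 with a pseudocount of 5 RPKM, 160 with peaks of 1 kb or more, 1081 without a filter and 109 with a filter at 200 RPKM, where fewer or more genes were compared in the last 3; after GC correction it was 511, 245 lower and 266 higher. Chosen after seeing the data, taking a read to cover 75 bp, or correcting for GC content, left 0 out of the interval in 7 instead of 5 members (adding Pvt1 and Max, or Pvt1 and Mnt), and turnover genes with more signal in spleen moved from 8 to 4 with peaks of 1 kb or more. The cause of these changes was not tested. No paired analysis was possible because each tissue had 1 library. Without replicates, biological variation is unknown, and peaks under 1 kb vary too much singly to be read alone.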
